A study of Mus musculus with 4 samples.

Results

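The hormones and growth factors that fat releases were followed here in brown adipose tissue (BAT) of mouse fetuses. The genes were chosen by name as adipokines and brown fat secreted factors, and all 10 of them, namely Adipoq, Lep, Retn, Cfd, Rbp4, Nrg4, Fgf21, Bmp8b, Vegfa and Vegfb, were found by symbol among the 22298 genes of the count table. BAT was taken on the last day of gestation from C57BL/6 fetuses (C57BL/6J in the study's methods), labelled male. Their dams drank tap water while pregnant in the control group, and water with 20% (w/v) fructose in the fructose group. RNA-seq gave 2 libraries per group and 4 in all, and how many fetuses or litters stood behind each was not stated, so that p-values measure only the spread between these libraries. No transgene or deletion is named in the labels of either group.

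Adipokines are proteins that adipocytes release into blood, where adiponectin raises insulin sensitivity, leptin reports the size of fat stores to the brain, and resistin, adipsin and RBP4 act on glucose handling, complement and retinol transport. Brown fat releases a further set of factors, among them NRG4, FGF21 and BMP8B, that act on liver, nerve and on the brown adipocytes themselves. The VEGF proteins sustain the dense capillary bed of BAT, which carries off heat and delivers fuel.

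The libraries held 18542897 to 23645147 counts on genes, with 14859 to 15411 genes detected. A level is given as CPM, the counts of a gene scaled to a common library total with TMM factors, and with 3 counts as the floor the lowest level that could be told from 0 was 0.122 to 0.166 CPM. Brown adipocyte markers were abundant in every library, with a summed level of 14166 to 17230 CPM over 8 genes. Of the 8 brown markers, 3 were higher in fructose and 2 lower (edgeR adjusted p-value under 0.05), beside 15.5% and 10.7% of tested genes. Of 6 hepatocyte markers, 3 were listed at 0 in all 4 libraries. Counts of 4 Y-linked genes were 422 and 390 in control libraries 1 and 2 and 0 in both fructose libraries, which are labelled male as well, so that fetal sex and the drink cannot be told apart in any comparison given here. Mitochondrially encoded genes took 5.89% and 6.49% of the control counts and 10.8% and 11.2% of the fructose counts. All 8 skeletal muscle markers were higher in fructose, with summed levels of 161 and 223 CPM in control and 557 and 400.2 CPM in fructose. The log2 fold change of a gene rose with the length of its longest transcript (Spearman's rho 0.501 over all tested genes) and fell with its GC content (rho -0.501). Many of the fold changes below are therefore given also after both trends were removed from each library. The part of the mitochondrial share and of muscle RNA in the results was not tested.

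Of the 10 genes, 8 passed the filter on low counts and 4 were called by edgeR's quasi-likelihood test at an adjusted p-value under 0.05, against 26.2% of all 12888 tested genes. Rbp4 and Vegfa were higher in fructose (15.5% of all tested genes were called higher) and Adipoq and Cfd were lower (10.7%). The median log2 fold change was -0.12 over the 8 genes and 0.00 over all tested genes. The groups did not overlap for 6 of the 8 genes, beside 65.1% of all tested genes, with fructose above for 2 (33.4%) and below for 4 (31.6%). DESeq2 called 3 of the 8 (18.8% of all tested genes), Rbp4 and Vegfa higher (10.6%) and Adipoq lower (8.17%). With both trends removed, Rbp4 and Vegfa were the only genes of the 8 that were called, both higher, beside 8.22% of all tested genes called in either direction, 3.93% higher and 4.3% lower. The study's methods set 0.05 for the p-value without adjustment together with a fold change of 1.3, and by these thresholds Rbp4 and Vegfa were higher, beside 17.6% of all tested genes, and Cfd was lower, beside 6.18%.

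**Figure D1:**
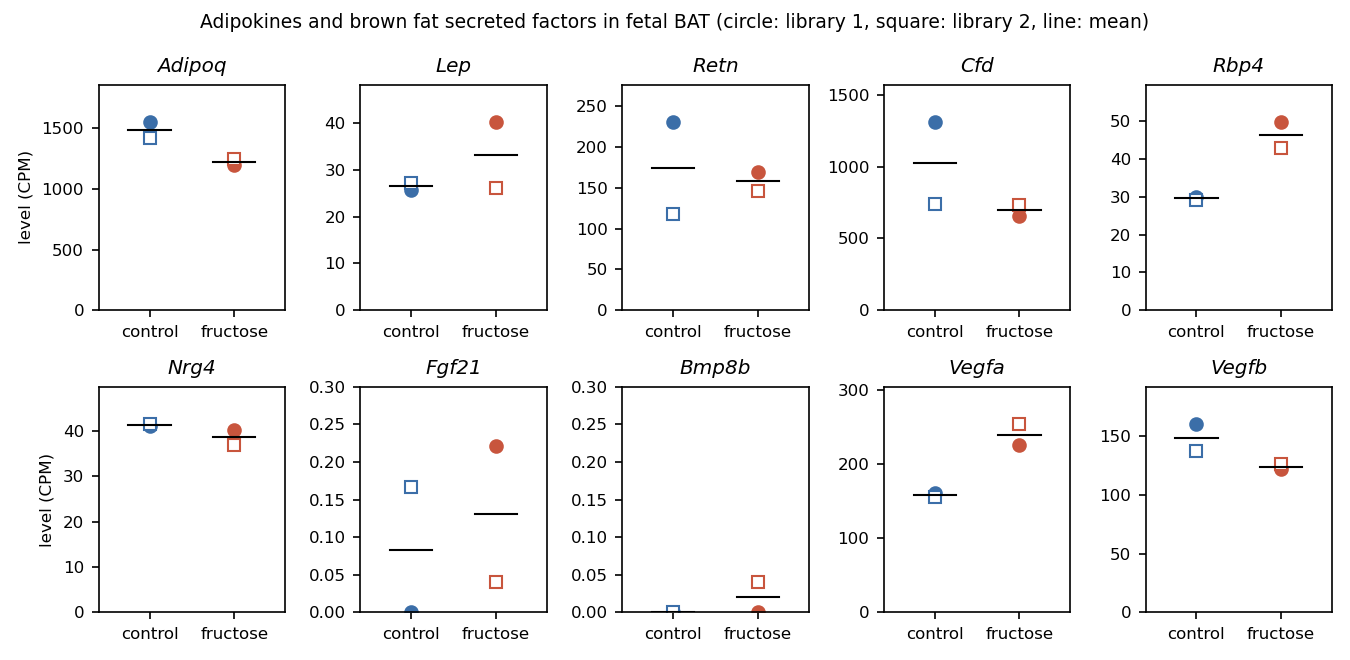
Level (CPM, each axis from 0) of the 10 genes in the control and fructose libraries, with circles for library 1, squares for library 2 and a line for the mean of the 2. Both fructose libraries lie above both control libraries for Rbp4 and Vegfa and below them for Adipoq, Cfd, Nrg4 and Vegfb, and Fgf21 and Bmp8b stay at or under 5 counts.

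Rbp4 encodes retinol binding protein 4, the carrier of retinol in blood, which liver and adipocytes release. Its gene lies at chr19:38116629-38125281 on the minus strand (GRCm38). Its level was 30.0 and 29.2 CPM in control libraries 1 and 2 and 49.7 and 42.9 CPM in fructose libraries 1 and 2, from 569, 527, 1125 and 1051 counts. Both fructose libraries lay above both control libraries, and the control libraries differed from each other by less than the fructose libraries did. The log2 fold change was 0.64 (SE 0.10, n = 2 per group, edgeR adjusted p = 0.00137), a 1.56-fold higher level. Rbp4 is a short transcript of 1161 bases at 55.6% GC, at the 5.75th percentile of length and the 79.5th of GC content among the tested genes. Removal of both trends gave a larger log2 fold change, 0.96 (adjusted p = 0.000385), and across 15 alternatives it ran from 0.54 to 0.96 and was called in each. The 6 hepatocyte markers summed to 0.776 to 1.02 CPM in the 4 libraries, and Alb, the albumin gene, had at most 2 counts. Ttr, which encodes the plasma partner of RBP4, was listed at 0 in all 4 libraries, and Stra6, its receptor for retinol uptake, had 7, 7, 6 and 4 counts and was not tested.

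Vegfa encodes vascular endothelial growth factor A, the main signal for the growth of capillaries. The gene lies at chr17:46016993-46032369 on the minus strand. Levels were 160 and 155 CPM in the control libraries and 226 and 254 CPM in the fructose libraries, from 3040, 2799, 5102 and 6211 counts. Both fructose libraries were above both control libraries, with a gap between the groups that was wider than the spread within either. This was a log2 fold change of 0.60 (SE 0.09, n = 2 per group, edgeR adjusted p = 0.000924), or 1.52-fold. At 3451 bases and 50.9% GC, Vegfa lies near the middle of the tested genes (50.4th percentile of length, 54.5th of GC content), and with both trends removed the value was 0.64 (adjusted p = 0.00202). It was called in each of the 15 alternatives, with a range of 0.52 to 0.69.

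Vegfb, at chr19:6982473-6987651 on the minus strand, encodes a relative of Vegfa that binds FLT1 and not KDR. Its levels were 160 and 137 CPM in control and 122 and 126 CPM in fructose. The fructose libraries lay below both control libraries, the opposite side from Vegfa. Its log2 fold change of -0.26 (SE 0.09, n = 2 per group, edgeR adjusted p = 0.0529) was not called. Vegfb is short (1281 bases) and at 62.6% GC stands at the 98.9th percentile of GC content, and with both trends removed its log2 fold change turned to 0.12 (adjusted p = 0.465). Without control library 2 it was -0.37 (adjusted p = 0.00156), in a fit where the lone control library is taken to vary like the others, as in every fit below that leaves out 1 library. Vegfa and Vegfb were thus at similar CPM in the control libraries and apart in the fructose libraries, although per kilobase of merged exons Vegfb stayed above Vegfa in both groups.

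Rbp4 and Vegfa were the genes called higher with and without the trends. For each, the 250 bases before an annotated start (RefSeq, GRCm38.p6) are shown 5′ to 3′ on the gene's strand. Capitals mark the matches to 6 short motifs searched on both strands.

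Rbp4 (chr19:38124812-38125061, minus strand): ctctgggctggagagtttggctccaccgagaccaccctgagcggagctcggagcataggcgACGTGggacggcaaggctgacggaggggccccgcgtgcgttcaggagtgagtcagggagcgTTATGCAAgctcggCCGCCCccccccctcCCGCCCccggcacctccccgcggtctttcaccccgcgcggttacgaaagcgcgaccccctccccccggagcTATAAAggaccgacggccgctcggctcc
Vegfa (chr17:46032378-46032627, minus strand): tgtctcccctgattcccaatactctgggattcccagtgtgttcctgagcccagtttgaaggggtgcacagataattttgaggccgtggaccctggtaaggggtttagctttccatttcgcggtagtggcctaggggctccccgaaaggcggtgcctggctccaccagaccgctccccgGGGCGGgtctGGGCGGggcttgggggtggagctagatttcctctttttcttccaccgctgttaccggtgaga

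The motifs were an E-box (CACGTG, in 6.02% of 32851 promoter windows of this length), the hypoxia response core ACGTG, which is also the end of the E-box (16.6%), the nuclear receptor motif AGGTCA (14.0%), a C/EBP octamer TTGCNNAA (9.56%), a GC box GGGCGG (32.7%) and the TATA box TATAAA (12.4%). In the Rbp4 window the first letter of ACGTG lay 189 bases before the start and that of the TATA box 28. The matches on the other strand had their first printed letter 128 (C/EBP octamer), 114 and 99 (GC boxes) bases before the start. The Vegfa window shown held GC boxes 72 and 62 bases before the start and no match to the other motifs. A second annotated start was listed for each gene, and its window is not shown. The second Rbp4 window (chr19:38125322-38125571) held none of the 6 motifs. The second Vegfa window (chr17:46025164-46025413) held ACGTG 211 bases and a GC box 158 bases before its start. The Rbp4 window shown and the second Vegfa window lie within the gene coordinates given above. The windows of Adipoq, Cfd and Retn held none of the 6 motifs, which says only that these letters are not in these windows. Matches also lay in the windows of Vegfb, Nrg4, Lep, Bmp8b and Fgf21. Vegfb had AGGTCA 2 times and 4 GC boxes, and Nrg4 had ACGTG 1 time and AGGTCA 2 times. Lep had 1 C/EBP octamer and 1 GC box, and Bmp8b had 1 ACGTG and 1 GC box. Fgf21 had 1 E-box, 2 matches to ACGTG, 3 GC boxes and 1 TATA box.

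Adipoq encodes adiponectin, one of the most abundant adipocyte products, and lies at chr16:23146536-23158028 on the plus strand. Levels were 1553 and 1421 CPM in control and 1200.4 and 1249.6 CPM in fructose, from 25622 to 30611 counts. Both fructose libraries lay below both control libraries. The log2 fold change was -0.28 (SE 0.09, n = 2 per group, edgeR adjusted p = 0.0383), so that the control level was 1.21-fold the fructose level, under the 1.3-fold of the study's methods. DESeq2 called it as well (adjusted p = 0.0101), and with the GC trend removed the value was -0.38 (adjusted p = 0.0141). Adipoq is a short transcript of 1292 bases, and with the length trend removed the value was -0.06 (adjusted p = 0.721) and with both trends removed -0.15 (adjusted p = 0.351). The call was also lost without control library 1 (-0.22, adjusted p = 0.0569), without fructose library 1 (-0.25, adjusted p = 0.219) and without fructose library 2 (-0.31, adjusted p = 0.141). Beside it stood 6 pan-adipocyte markers, Pparg, Cebpa, Fabp4, Plin1, Lipe and Lpl. They summed to 12516 and 11610 CPM in control and 11132 and 10789 CPM in fructose. Of these 6 genes edgeR called 1 higher and 2 lower, beside 15.5% and 10.7% of all tested genes. With both trends removed it called 1 higher and 1 lower, beside 3.93% and 4.3%. In bulk tissue fewer adipocytes and less RNA per adipocyte cannot be told apart.

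Cfd encodes adipsin, the protease that starts the alternative pathway of complement, and lies at chr10:79890853-79892655 on the plus strand. It had 1309.6 and 737 CPM in control libraries 1 and 2 and 659 and 731 CPM in fructose libraries 1 and 2. The fructose libraries lay below both control libraries, but fructose library 2 was next to control library 2, and control library 1 stood alone above the other 3. The log2 fold change was -0.56 (SE 0.19, n = 2 per group, edgeR adjusted p = 0.0495), and DESeq2 did not call it (adjusted p = 0.358). Without control library 1 the value was -0.09 (adjusted p = 0.511) and without control library 2 it was -0.91 (adjusted p = 1.53e-21), so that 1 library decided its size. With both trends removed it was -0.15 (adjusted p = 0.686), Cfd being the shortest of the tested members at 922 bases, with 58.4% GC.

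Retn encodes resistin, an adipocyte hormone of the mouse, and lies at chr8:3655770-3660110 on the plus strand. Its levels were 230.7 and 118 CPM in control and 170 and 146 CPM in fructose. The fructose libraries lay between the control libraries. Resistin message differed by -0.14 on the log2 scale (SE 0.21, n = 2 per group, edgeR adjusted p = 0.660) and was not called. Without control library 1 it was 0.42 (adjusted p = 0.000389) and without control library 2 it was -0.55 (adjusted p = 4.46e-07), so that neither direction can be read from these libraries. In both Retn and Cfd control library 1 was the high one, by 1.95-fold and 1.78-fold over control library 2, and these gaps stood at the 99.8th and 99.5th percentile of the gaps between control libraries over 7811 genes of at least 10 CPM. The relatives of Retn were at or near the floor apart from Retnlg, which had 102 and 77 counts in control and 50 and 67 in fructose (log2 fold change -0.96, edgeR adjusted p = 0.0158). No window of 50 bases of Retn was shared with them.

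Lep encodes leptin and lies at chr6:29060220-29073877 on the plus strand. Levels were 25.6 and 27.3 CPM in control and 40.2 and 26.1 CPM in fructose. Fructose library 1 was above the other 3, which lay close together, and the groups overlapped. Over all 4 libraries the log2 fold change was 0.32 (SE 0.16, n = 2 per group, edgeR adjusted p = 0.164). It was -0.02 (adjusted p = 0.965) without fructose library 1, 0.61 (adjusted p = 0.00228) without fructose library 2 and 0.37 (adjusted p = 0.0230) without control library 2. The 1.54-fold gap between the fructose libraries stood at the 99.7th percentile of such gaps. With both trends removed the log2 fold change over all 4 libraries was 0.31 (adjusted p = 0.282).

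Among the factors best known from brown fat, Nrg4 alone was expressed well above the floor. Nrg4, at chr9:55220222-55326844 on the minus strand, encodes neuregulin 4, a ligand of the ERBB4 receptor that brown fat sends to the liver. It had 41.2 and 41.5 CPM in control and 40.2 and 37.0 CPM in fructose, the narrowest spread between control libraries of the tested members. The fructose libraries lay just below the control libraries. This difference, on the log2 scale, was -0.10 (SE 0.09, n = 2 per group, edgeR adjusted p = 0.452). With both trends removed it was -0.17 (adjusted p = 0.303). It was 0.03 with the length trend removed (adjusted p = 0.877) and -0.36 with the GC trend removed (adjusted p = 0.0270), the transcript being AT-rich at 44.1% GC. Of its windows of 50 bases, 7.48% occurred also in Fbxo22, a gene on the opposite strand whose exons overlap 368 bases of it, and since the counting of strand was not given, some reads of the pair could have been counted on either.

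Fgf21 and Bmp8b were at the detection floor. Fgf21, a hormone of liver and of activated brown fat at chr7:45613886-45615490 on the minus strand, had 0 and 3 counts in control and 5 and 1 in fructose. With 3 counts against 6, the ratio of fructose to control was 1.64, with an exact 95% interval of 0.350 to 10.1 for counting error alone, so that no difference was detectable at this depth. Bmp8b, a member of the TGF-beta family released by mature brown fat, at chr4:123105165-123132099 on the plus strand, had 0 counts in 3 libraries and 1 count in fructose library 2, and no fold was taken. A count of 0 allows a level of up to 0.158 CPM in control library 1, 0.166 in control library 2 and 0.133 in fructose library 1. Of the windows of 50 bases of Bmp8b, 11.1% occurred also in other genes, and 210 of 2891 in its near copy Bmp8a, which had 0, 1, 1 and 0 counts. The counts of both genes together were 0 or 1 in each library.

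The study's primer pairs for Adipoq, Retn and Fgf21 are shown because they place the amplicons of its PCR on transcripts of genes that were counted here.

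Adipoq sense: gccgcttatgtgtatcgctcag
Adipoq antisense: ttgccagtgctgccgtcata
Retn sense: cagaaggcacagcagtcttga
Retn antisense: ctgtccagtctatccttgcacac
Fgf21 sense: tccagtttgggggtcaagtc
Fgf21 antisense: accactgttccatcctccct

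All 6 matched coding sequence, and no other gene held both primers of a pair. The Adipoq pair lay in exon 3 of 3 (chr16:23157178-23157199 and chr16:23157286-23157305) with an amplicon of 128 bases. Of the 2 annotated transcripts of Adipoq, 1 held both primers, while the count is per gene. The Fgf21 pair lay in exon 1 of 3 (chr7:45615172-45615191 and chr7:45615095-45615114, 97 bases). Since each of these pairs lies within 1 exon, genomic DNA would give the same product for Adipoq and for Fgf21. The Retn sense primer spans the junction of exons 3 and 4 and its antisense primer lies in exon 4 (chr8:3657329-3657351, 108 bases). The Retn pair was listed in the other order and is named here by its match to the gene's strand. By qRT-PCR the study reported Adipoq as downregulated in fetal BAT of the fructose group. For Retn and Fgf21 its text names no result in fetal BAT.

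To compare levels between genes, CPM was divided by the length of merged exons in kilobases. In the control libraries Cfd had 1110.0 ± 439 CPM per kilobase (SD, n = 2) and Adipoq 1077 ± 67.5, and their ranges overlapped. Retn (110.5 ± 50.4) and Vegfb (92.4 ± 10.1) came next and overlapped as well, followed by Vegfa (36.8 ± 0.861), Rbp4 (22.1 ± 0.424), Lep (7.88 ± 0.356) and Nrg4 (6.81 ± 0.0305), each apart from its neighbours. In the fructose libraries the order was Adipoq (887 ± 25.2), Cfd (754 ± 55.8), Retn (100.1 ± 10.4), Vegfb (77.1 ± 1.80), Vegfa (55.9 ± 4.61), Rbp4 (34.5 ± 3.60), Lep (9.88 ± 2.97) and Nrg4 (6.35 ± 0.373), with no overlap between neighbours. The order of Lep and Nrg4 rests on the length used: divided by the longest transcript, Nrg4 had 19.7 and Lep 8.11 CPM per kilobase in control, and 18.4 and 10.2 in fructose.

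**Figure D2:**
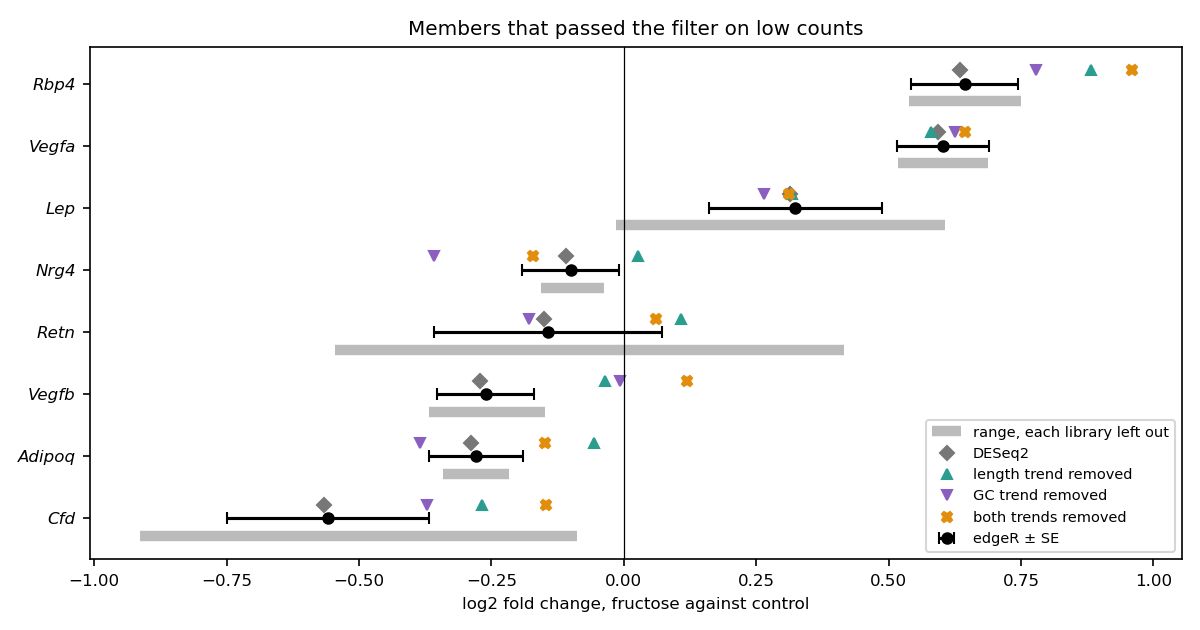
Log2 fold change (x axis, fructose against control) of the 8 genes that passed the filter, by edgeR with its SE (black), by DESeq2 and after removal of the length trend, the GC trend or both, with a grey bar for the range when each library was left out. Rbp4 and Vegfa keep to the right of 0 in all settings (0.52 to 0.96), while the bars of Retn and Lep cross 0 and the bar of Cfd runs from -0.91 to -0.09.

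**Figure D3:**
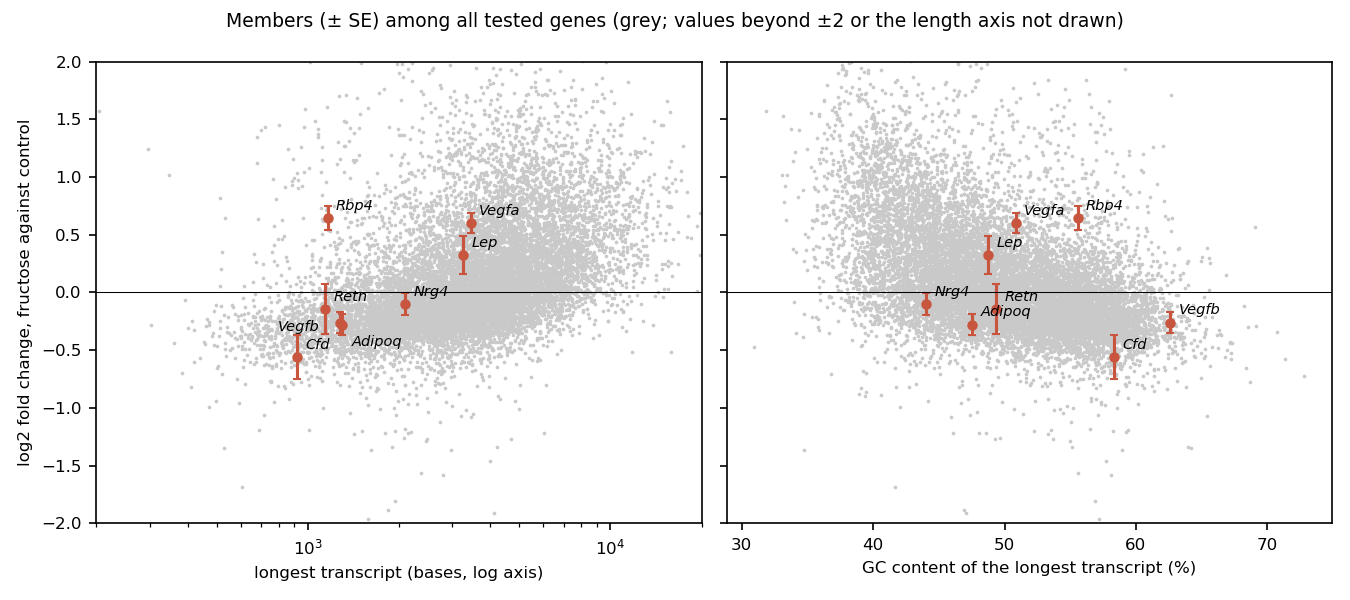
Log2 fold change (y axis, fructose against control) against the longest transcript's length (left, log axis) and GC content (right), with the 8 genes as red points with SE and all other tested genes in grey. Rbp4, at 1161 bases, lies at 0.64 where Adipoq, Cfd, Retn and Vegfb of similar length lie between -0.56 and -0.14, and Vegfa lies near the middle of both axes.

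Receptors, coreceptors and assembly partners of the 10 factors were taken from a list of 28 genes. Of 26 that passed the filter, 7 were called higher by edgeR and 0 lower, beside 15.5% and 10.7% of all tested genes, and the median log2 fold change was 0.27. DESeq2 called 6 higher (10.6% of all tested genes) and 0 lower, and 1 gene, Fgfr1, was lower at an unadjusted edgeR p-value under 0.05. The 7 were receptors of the BMP and activin type and VEGF receptors. With both trends removed 1 of them was called, beside 3.93% of all tested genes called higher, and the median was 0.13. With the length trend alone removed 4 were called higher and Fgfr1 lower, and with the GC trend alone removed 5 were called higher and Erp44, an assembly factor of adiponectin, lower (-0.38, adjusted p = 0.0294, against 0.04 before).

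The type I and type II receptors through which BMP8B and its relatives signal made up 4 of the 7. Acvr2b (log2 fold change 0.32, edgeR adjusted p = 0.576) and Bmpr1b (0.67, adjusted p = 0.331), listed with them, were not called. For both genes the groups overlapped. Bmpr2, the type II BMP receptor, had 7.97 and 7.54 CPM in control and 18.53 and 20.62 CPM in fructose, and both fructose libraries were far above. Its log2 fold change was 1.33 (SE 0.14, n = 2 per group, edgeR adjusted p = 0.000202), and with both trends removed 0.47 (adjusted p = 0.0489). Acvr2a, a type II activin receptor, had 2.85 and 1.89 CPM in control and 5.75 and 6.98 CPM in fructose, a log2 fold change of 1.42 (SE 0.25, adjusted p = 0.00252) that became 0.81 (adjusted p = 0.0526) without the trends. Acvr1c, which encodes ALK7, had 18.05 and 14.69 against 28.5 and 39.5 CPM, and its log2 fold change of 1.05 (SE 0.16, adjusted p = 0.00109) became 0.26 (adjusted p = 0.265). Bmpr1a rose by 0.73 on the log2 scale (SE 0.17, adjusted p = 0.00849) and was at 0.17 (adjusted p = 0.526) without the trends. These are long and AT-rich transcripts: Bmpr2 and Acvr1c, at 12899 and 9162 bases and 41.0% and 40.1% GC, stand at the 99.2nd and 96.5th percentile of length. Their ligand Bmp8b, as given above, was at the floor in the same libraries.

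The receptors of the VEGF proteins followed. Flt1, which binds both VEGFA and VEGFB, had 44.3 and 47.7 CPM in control and 58.0 and 67.6 CPM in fructose (log2 fold change 0.45, SE 0.10, edgeR adjusted p = 0.00699), and was not called without fructose library 2 (0.34, adjusted p = 0.0790). Nrp1, a coreceptor, rose by 0.49 (SE 0.09, adjusted p = 0.00306). Nrp2 rose by 0.24 (SE 0.08, adjusted p = 0.0406), a call that DESeq2 (adjusted p = 0.106) and each fit without 1 library (adjusted p from 0.0538 to 0.192) did not make. Kdr, the main receptor of VEGFA on endothelium, had 211 and 201 CPM in control and 241 and 240.1 CPM in fructose, with a log2 fold change of 0.22 (SE 0.08, adjusted p = 0.0584) that was not called; it was 0.26 (adjusted p = 0.0316) without control library 1. With both trends removed the values were 0.21 for Flt1, 0.16 for Nrp1, 0.03 for Nrp2 and 0.01 for Kdr, and none was called. The 6 endothelial markers beside them summed to 1403 and 1363 CPM in control and 1168 and 1249 CPM in fructose. By edgeR 1, Cldn5, was called lower and 0 higher, beside 10.7% and 15.5% of all tested genes. DESeq2 also called Cldn5 lower and 0 higher. At an unadjusted edgeR p-value under 0.05, 1, Tek, was higher and 3 were lower, beside 2769 and 2294 of all 12888 tested genes.

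Receptors of the classical adipokines, of NRG4 and of FGF21 were not called. Adipor1 had 177 to 197 CPM and Adipor2 1137 to 1297 CPM over the 4 libraries, with log2 fold changes of -0.08 (SE 0.08, edgeR adjusted p = 0.496) and -0.13 (SE 0.09, adjusted p = 0.308). The leptin receptor Lepr was scarce, at 9 and 8 counts in control and 23 and 26 in fructose, and passed the filter only through the fructose libraries (1.17, SE 0.45, adjusted p = 0.0779). Its value was 0.66 (adjusted p = 0.416) with both trends removed. Erbb4, the receptor of NRG4, was as scarce, at 8 and 5 against 18 and 21 counts, and passed in the same way (1.22, SE 0.51, adjusted p = 0.0988). With both trends removed its value was 0.38 (adjusted p = 0.712). Fgfr1 and Klb, which together form the receptor of FGF21, were well expressed. Fgfr1 had 136 and 139 CPM in control and 119.6 and 118 CPM in fructose (-0.21, SE 0.08, adjusted p = 0.0646). Its value was -0.40 (adjusted p = 0.00633) with the length trend removed. It was -0.08 (adjusted p = 0.530) with the GC trend removed and -0.24 (adjusted p = 0.0735) with both removed. Klb had 46.3 to 49.6 CPM (-0.04, SE 0.09, adjusted p = 0.772). The receptor pair of FGF21 was therefore present where its ligand was at the floor, and of the listed NRG4 receptors Erbb4 had few counts, while Erbb3 had 5.75 and 5.60 CPM in control and 6.19 and 7.72 CPM in fructose (0.29, adjusted p = 0.278) and its partner Erbb2 had 7.92 to 12.6 CPM over the 4 libraries (-0.33, adjusted p = 0.179).

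**Figure D4:**
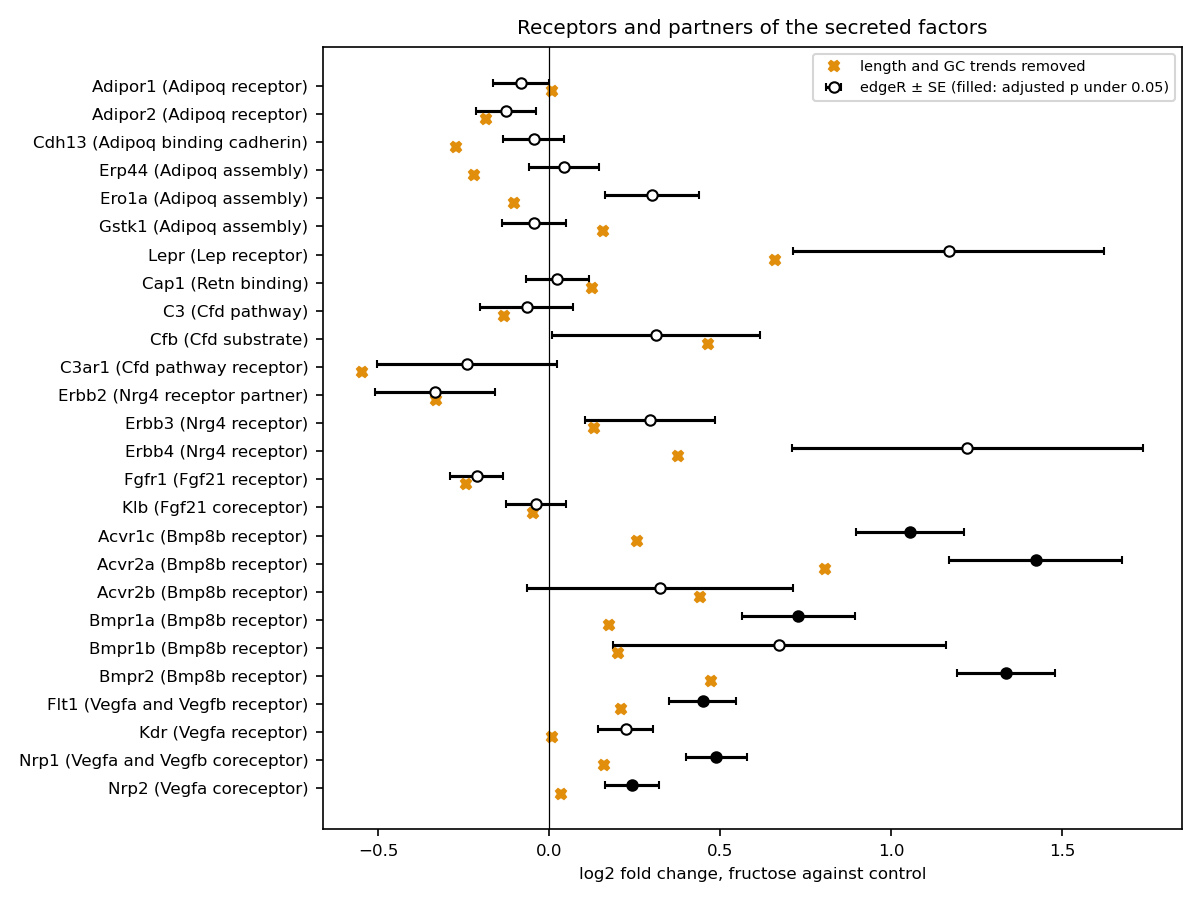
Log2 fold change (x axis, fructose against control) with SE for the 26 receptors and partners that passed the filter, filled where the edgeR adjusted p-value was under 0.05, with crosses after removal of the length and GC trends. The 7 filled points, all to the right of 0, belong to BMP, activin and VEGF receptors and coreceptors, and all 7 crosses lie nearer 0 than their points.

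Among 40 other secreted factors of adipose tissue, 27 passed the filter, 2 were called higher and 2 lower, beside 15.5% and 10.7% of all tested genes, and the median log2 fold change was -0.01. The 4 calls are 14.8% of the 27, under the 26.2% of all tested genes. Nampt, which encodes visfatin, an enzyme of NAD synthesis, had 160 and 155 CPM in control and 221 and 227 CPM in fructose (0.51, SE 0.08, edgeR adjusted p = 0.00135), and the value was 0.01 (adjusted p = 0.944) with both trends removed. Angpt1, a vessel-stabilising ligand, had 3.75 and 2.72 against 5.66 and 7.80 CPM (1.06, SE 0.24, adjusted p = 0.00901), and it was not called without fructose library 2 (0.81, adjusted p = 0.0823). Rarres2, the chemerin gene, had 57.3 and 47.1 CPM in control and 39.0 and 38.7 CPM in fructose (-0.43, SE 0.10, adjusted p = 0.0117), and was at -0.28 (adjusted p = 0.0529) without control library 1. Lcn2, the lipocalin 2 gene, had 7.18 and 5.49 against 2.87 and 3.27 CPM (-1.04, SE 0.23, adjusted p = 0.00696), the fructose libraries lying below both control libraries. With both trends removed edgeR called 0 of the 27 (4 at an unadjusted p-value under 0.05, 2 in each direction; DESeq2 was run without trend removal and called 4), with Lcn2 at -0.77 (adjusted p = 0.0547), Rarres2 at -0.31 (adjusted p = 0.0895) and Angpt1 at 0.55 (adjusted p = 0.153).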

How the data were processed

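The values used are the counts per gene that the authors deposited without normalization. Per the labels and the study's methods, reads were filtered with fastp, mapped to mm10 with Bowtie2 (2.0.0.5) and TopHat2 (2.0.0) and assembled with StringTie (2.2.0), and counts were taken after merging with Cuffmerge. The program that counted the reads, its use of strand and its handling of reads that match several genes were not given in the sources used here. The 4 tables of single libraries repeat the counts of the joint table. Symbols, coordinates, lengths and GC content came from GENCODE M21 (GRCm38), in which 43 of 22298 identifiers had no match.

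Genes kept by filterByExpr (12888) were tested with edgeR 4.0.16 (R 4.3.3): TMM, quasi-likelihood, no covariate, two-sided, Benjamini-Hochberg over all tested genes. DESeq2 1.42.0 was an alternative. Length and GC trends were estimated in each library by lowess (span 0.3) and entered as offsets. Other alternatives were scaling, filters, the replicate number as a block, library sizes without mitochondrial and haemoglobin genes, and each library left out. A count of 3 was taken as the floor. Intervals cover counting error only.

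Every member was described. Of the other lists, genes called in either direction the best-known receptors of the members and the paralogs of members were named. The members and lists were chosen with earlier results of these data known, and the neutrophil and hypoxia genes and the genes named for gaps between libraries after their values were seen. Xist was not analysed here. Within a group the libraries differed beyond sampling noise (chi-square per degree of freedom 11.4 in control and 7.47 in fructose) and were counted as separate samples. The promoter sequences are from RefSeq (GRCm38.p6).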

Additional observations from a re-analysis of the deposited data

How the results depend on the processing

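Rbp4, Vegfa and Bmpr2 kept their direction and their call in all 15 alternatives. Of the 10 members, 4 were called, and this became 2 with library size only, 2 with the length trend removed, 2 with both trends removed and 2 with both trends and the block, while leaving out each library gave 3 to 7, the 7 without control library 2. The 7 receptors and partners became 1 with both trends removed and 2 with the block as well (5 to 7 with each library left out). The 4 other secreted factors became 2 with the GC trend removed, 0 with both trends removed and 2 with the block as well (3 to 8 with each library left out, the 8 without control library 2). Over all tested genes 3380 calls became 2162 with the length trend removed, 2223 with the GC trend, 1060 with both and 1487 with both and the block, and 1692 to 3925 with each library left out, the 1692 without fructose library 2. With 1 library left in a group, that library was assumed to vary like those of the other group. Of all calls 59.2% were higher, against 72.3% with library size only, 49.1% with the GC trend removed and 47.7% with both. Why calls were lost was not tested.

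Among the named genes recomputed in every setting, directions turned for Lep (-0.0157 without fructose library 1, with 0.607 without fructose library 2), Retn (0.11 with the length trend removed, 0.0601 with both, 0.13 with both and the block, 0.42 without control library 1, with -0.546 without control library 2), Nrg4 (0.0276, length), Vegfb (0.12 with both, 0.12 with the block as well), Adipor1 (0.0143 with GC, 0.00880 with both and 0.00670 with the block as well), Klb (0.0216 with library size only), Kdr (-0.0373, length) and Nrp2 (-0.0786, length). None of these turned values was called except that of Retn without control library 1. Of the other receptors and partners, Erp44 turned (-0.38 with GC, called, and -0.22 with both), as did Ero1a (-0.11 with GC, -0.10 with both), Gstk1 (0.16 with length, 0.16 with both) and C3 (0.02 with GC).

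The libraries of the 2 groups share replicate numbers. Taken over genes as a whole, same-numbered libraries did not deviate together (correlation of deviations -0.03 over all tested genes, -0.08 above 10 CPM). A pairing that touches only some genes was not tested. With the replicate block 4 members were called, Vegfb (adjusted p = 0.0457) in place of Adipoq (adjusted p = 0.0552), and 3558 genes in all (2117 higher and 1441 lower). For levels per kilobase, the longest transcript in place of merged exons put Adipoq above Cfd in control and Nrg4 above Lep in both groups. Depth limits Fgf21, Bmp8b, Stra6, Lepr and Erbb4.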

Other observations

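Control library 1 stood above control library 2 in more than Retn and Cfd. Among genes of at least 10 CPM with a count in control library 2, 11 others had a ratio of control library 1 to control library 2 at least as large as that of Retn, and 27 at least as large as that of Cfd. The 11 were Ptger3, Erbin, Igf1, Slc7a10, Srp54a, Clk1, Arrdc3, Trf, Jun, Apod and Dram1. Trf, which encodes the iron carrier transferrin, had 666 CPM in control library 1 and 294 CPM in control library 2, against 459 and 480.0 CPM in fructose. Apod, which encodes an apolipoprotein, had 29.9 and 13.0 CPM in control and 14.8 and 16.2 CPM in fructose. Slc7a10, an amino acid transporter of adipocytes, had 24.6 and 12.1 CPM in control and 22.6 and 21.7 CPM in fructose. Igf1 had 29.3 and 14.6 CPM in control and 32.4 and 33.6 CPM in fructose. These genes were chosen after their values were seen.

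Of genes of at least 10 CPM, 15 others had a ratio of fructose library 1 to fructose library 2 at least as large as that of Lep. They were the tubulin genes Tuba4a, Tubb4b, Tuba8 and Tubb2a, and Fasn, Aacs, Elovl3, Actc1, Hspb8, Hdhd3, Mxra7, Tmem267, Adap1, Gm45837 and Chtf8. In fructose library 1 and fructose library 2, Fasn, the fatty acid synthase gene, had 5930 and 3770 CPM, Aacs, acetoacetyl-CoA synthetase, 230.0 and 147 CPM, and Elovl3, a fatty acid elongase of brown fat, 50.5 and 32.5 CPM. In control libraries 1 and 2 they had 3738 and 2734, 169 and 102, and 28.1 and 19.9 CPM. Tubb2a had 54.9 and 31.7 CPM in fructose and 36.9 and 34.7 CPM in control.

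Lcn2 and Retnlg, both known also from neutrophils, were called lower in fructose, and 11 neutrophil genes were looked up afterwards, with no test attached to them as a group. The summed level of 11 neutrophil genes was 89.8 and 61.5 CPM in control and 40.3 and 51.5 CPM in fructose. Over the 8 that passed the filter the median log2 fold change was -0.71, against -0.38 without control library 1 and -0.48 with both trends removed. S100a8 had 17.2 and 9.81 CPM in control and 6.81 and 7.23 CPM in fructose, and Ltf, which encodes lactoferrin, 10.4 and 7.82 against 5.13 and 6.04 CPM. Macrophage markers summed to 143 and 105 CPM in control and 110 and 123 CPM in fructose. The part of blood cells in the values of Lcn2 and Retnlg was not tested.

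Beside Vegfa, the hypoxia-inducible factor gene Hif1a had 12.03 and 9.26 CPM in control and 24.6 and 23.6 CPM in fructose, and Epas1, which encodes its relative HIF2A, had 229 and 229 against 298 and 277 CPM. These 2 genes were looked up after the values of Vegfa were seen, and no test is attached to them. Their levels are given without removal of the length and GC trends.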
